A study of Mus musculus with 4 samples.

Results

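The 14-3-3 genes *Ywhab*, *Ywhae*, *Ywhag*, *Ywhah*, *Ywhaq*, *Ywhaz* and *Sfn* were followed in the testis of *Ccnyl1*-/- and WT mice. Their probe sets were those to which the platform annotation gives a single gene symbol that is one of these 7, which left 31 probe sets of 45037 and 7 genes of 18193. The choice used no measured value, but it was made with earlier results of these arrays known. The tested mice were 2 *Ccnyl1*-/- males, homozygous for the KO-first allele *Ccnyl1* tm1a, in which a LacZ cassette with a stop codon and a polyA tail interrupts the gene. They were set against 2 WT males. All 4 mice were C57BL/6 animals of 2 months of age, and the whole testis of each was hybridized to 1 Affymetrix Mouse Genome Array. The allele is present in every cell of the mouse, so germ cells and somatic cells of the testis both carry it.

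14-3-3 proteins are small acidic adaptors that work as dimers and grip short motifs around a phosphorylated serine or threonine. Binding can hold a client in the cytoplasm, mask a surface of it or bring 2 proteins together. Phosphorylated cyclin Y is a known client, and the complex with 14-3-3 helps it to bind and activate kinases of the PCTAIRE and PFTAIRE group, CDK16 and CDK14 among them. Protein kinase A can phosphorylate CDK16 and so create a 14-3-3 docking site on it. *Ccnyl1* encodes the close relative of cyclin Y that partners CDK16 in the male germ line. In sperm, 14-3-3 proteins are known as ligands of phosphorylated proteins and of the germ cell phosphatase PP1γ2. The arrays measure RNA, and neither the amount of 14-3-3 protein nor its binding to any client was measured.

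The promoters of *Ywhah* and *Ywhag* are shown because *Ywhah* was the only one of the 7 genes whose brightest probe set kept the genotypes apart, and because these were the 2 promoters, chosen after the values were seen, with a cAMP response element (CRE) or its shorter core among those looked up. The CRE is the site through which CREM is known to switch on genes in spermatids. RefSeq windows of GRCm38.p6 were matched for 5 of the 7 genes (*Sfn*, *Ywhae*, *Ywhag*, *Ywhah* and *Ywhaq*), and the 250 bases before the start site were searched on both strands. The 120 bases next to the start are printed 5′ to 3′ in the direction of transcription, with TGACG or its reverse complement CGTCA in capitals.
Ywhah, chr5:33018696-33018815, plus strand: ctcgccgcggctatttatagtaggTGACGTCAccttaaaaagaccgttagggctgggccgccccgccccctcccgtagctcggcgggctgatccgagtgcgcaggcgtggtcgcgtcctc
Ywhag, chr5:135934642-135934761, minus strand: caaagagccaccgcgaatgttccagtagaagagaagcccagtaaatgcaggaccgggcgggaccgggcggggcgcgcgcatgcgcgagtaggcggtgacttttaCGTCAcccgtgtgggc

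The full CRE, TGACGTCA, stood in the *Ywhah* window alone of the 5, and 1.55% of 32851 RefSeq windows of the same length held it. The shorter core TGACG, which lies inside the full CRE, stood in the *Ywhah* and *Ywhag* windows and in 17.8% of all windows. The GC box GGGCGG was found for *Ywhae*, *Ywhag* and *Ywhah* and in 32.7% of all windows. The letters CCAAT were found for *Sfn* and *Ywhaq* and in 33.8% of all windows, and TATAAA for *Ywhah* and in 12.4%. These are matches of letters and show no binding.

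Signals are MAS5 intensities, taken as deposited. For each probe set limma set log2(signal + 16) of the *Ccnyl1*-/- mice against that of the WT mice, with Benjamini-Hochberg adjusted p-values over the 32438 probe sets whose mean signal reached 32. Each log2 fold change is *Ccnyl1*-/- minus WT on that scale, so a positive one means a higher signal in *Ccnyl1*-/- testis, and it understates the change of dim probe sets. The targeted gene was low where the labels placed it. *Ccnyl1* read 921 and 969 in the *Ccnyl1*-/- mice, against 2256 and 2425 in the WT mice (log2 fold change -1.29, SE 0.09, adjusted p = 0.00463), though the position of its probes in the disrupted gene is not known here. The 4 arrays had the same trimmed mean of 500.0, between 26.4% and 29.1% of their probe sets read under 32, and Pearson's r across probe sets between any pair of arrays was 0.974 to 0.977. The tissue carried its defining markers. The 5 signals of the elongating spermatid list (*Prm1*, *Prm2*, *Tnp1*, *Tnp2* and *Smcp*) summed to 175841 and 170135 in *Ccnyl1*-/- testis and to 167434 and 172033 in WT testis. The spermatocyte list summed to 36138 and 36890 in *Ccnyl1*-/- testis, against 33413 and 35028 in WT testis, and the round spermatid list to 37465 and 36833, against 38621 and 36745. Some somatic lists varied more between mice. The Leydig cell list summed to 8883 and 4946 in *Ccnyl1*-/- testis, against 6741 and 3708 in WT testis. The macrophage list summed to 1547.2 and 1307.2, against 2367.0 and 1414.5. The Sertoli cell list varied less than these, with 18102 and 17748, against 18350 and 19221. None of the genes in any cell type list passed the test. In whole testis, fewer cells of a type and less RNA per cell cannot be told apart.

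None of the 29 14-3-3 probe sets that reached the minimum signal passed the test, on a background of 0.0123% of all probe sets called (4 of 32438). The lowest adjusted p among them was 0.645 by limma, at a single *Ywhaq* probe set. At an unadjusted p under 0.05 there were 5 of 29 (17.2%), against 6.05% of all probe sets. This count moved in both directions with the setting. With the arrays scaled to one median there were 2 of 29 (6.90%), against 6.99% of all probe sets. There were 2 also without limma's variance trend (5.88% of all) and by the methods' t-test (5.86% of all). After quantile normalization there were 6 of 29 (20.7%, against 5.74% of all). With the replicate number as a block there were 7 of 29 (24.1%, against 7.28% of all). Each gene is represented here by its brightest probe set. On these, the 6 tested genes spanned log2 fold changes of -0.02 to 0.14 with a median of 0.04, and the median over all 15268 genes was -0.00. At a mean signal of at least 1000, the median was 0.01 over 5 14-3-3 genes and -0.02 over all 4537 genes. The median of the 6 was 0.0111 without WT replicate 2, 0.0218 without KO replicate 1, 0.0615 without WT replicate 1 and 0.126 without KO replicate 2, and it was -0.0419 with the arrays scaled to one median, where that of all genes was -0.0755. Every one of these 6 intervals (95%) lay within a 2-fold change in either direction, as did those of 28 of the 29 probe sets, against 75.8% of all probe sets. That share depends on signal. Below a mean signal of 1000 it was 9 of 10, against 69.7% of all probe sets of that range. Between 1000 and 5000 it was 12 of 12, against 99.6%, and above 5000 it was 7 of 7, against 100%.

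**Figure D1:**
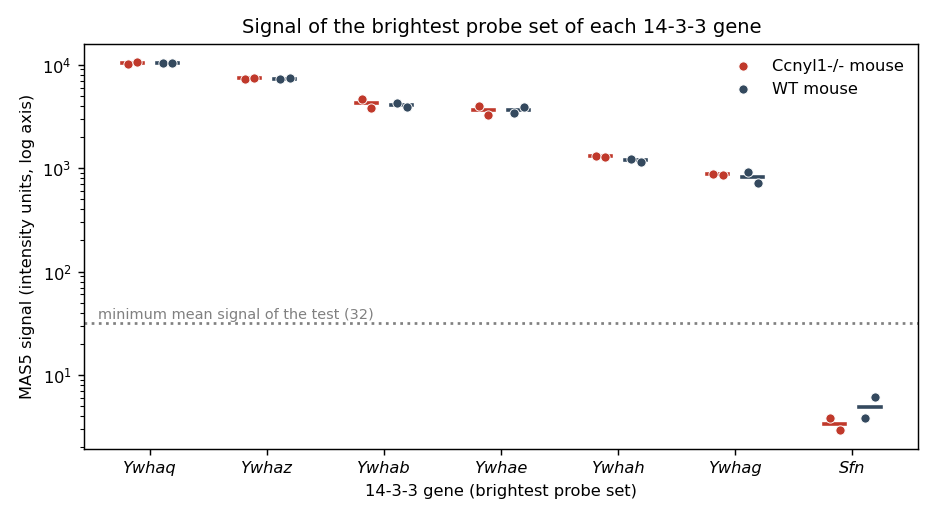
Signal of each 14-3-3 gene at its brightest probe set (vertical axis, MAS5 intensity units, log axis), with each *Ccnyl1*-/- mouse as a red point left of each WT mouse as a dark point, short lines at the genotype means and a dotted line at the minimum mean signal of 32. *Ywhah* is the only tested gene whose genotypes do not overlap, with 1320 and 1289 in *Ccnyl1*-/- testis above 1218 and 1153 in WT testis, and *Sfn* lies below 7 in all 4 mice. Heights of different genes come from different probes and are not compared.

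*Ywhaq* encodes 14-3-3 theta, an isoform known to be abundant in testis as well as in T cells and brain. Its brightest probe set, 1460621_x_at, read 10236 and 10531 in the *Ccnyl1*-/- mice, against 10416 and 10417 in the WT mice. The *Ccnyl1*-/- values lay on both sides of the WT ones, and the log2 fold change was -0.00 (SE 0.05, 95% interval -0.11 to 0.10, limma adjusted p = 0.996). The other 7 probe sets of the gene differed among themselves. Of the 8, 6 had log2 fold changes between -0.03 and 0.06, and 1460590_s_at had 0.09.

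The eighth *Ywhaq* probe set, 1437608_x_at, stood apart from the others. It read 5272 and 4766 in *Ccnyl1*-/- testis, against 4180 and 3492 in WT testis, so both *Ccnyl1*-/- mice were above both WT mice. Its log2 fold change was 0.39 (SE 0.09, 95% interval 0.18 to 0.61, unadjusted p = 0.00287, limma adjusted p = 0.645). As each mouse was left out, the log2 fold change of this probe set lay between 0.26 and 0.52. Probe set 1436846_x_at, with a similar mean signal, read 4148 and 3401 in *Ccnyl1*-/- testis and 3424 and 4016 in WT testis (log2 fold change 0.02, SE 0.11), with the genotypes interleaved. The suffix _x_at marks probe sets in which some probes also resemble other sequences, so that part of the signal may come from another transcript. The same limit holds for the brightest probe sets of *Ywhaq*, *Ywhae* and *Ywhag*, which carry this suffix too.

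*Ywhaz* encodes 14-3-3 zeta, an isoform known to bind PP1γ2 in sperm. Its brightest probe set, 1448219_a_at, read 7330 and 7498 in *Ccnyl1*-/- testis, against 7295 and 7413 in WT testis (log2 fold change 0.01, SE 0.05, 95% interval -0.11 to 0.13, limma adjusted p = 0.987). Probe set 1416102_at, the brighter of the 2 with the plain suffix _at, read 3430 and 3328 against 3210 and 3527 in WT testis (log2 fold change 0.01, SE 0.07). Neither separated the genotypes. The 5 dimmer probe sets had positive log2 fold changes, between 0.10 and 0.60.

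The widest of these was 1448218_s_at, a probe set whose probes are shared between transcripts of different genes. It read 248 in each *Ccnyl1*-/- mouse, against 185 and 134 in the WT mice (log2 fold change 0.60, SE 0.20, 95% interval 0.15 to 1.06, limma adjusted p = 0.758). It was also the only 14-3-3 probe set whose interval reached past 2-fold. Probe set 1439005_x_at read 426 and 431 against 322 and 342 in WT testis (log2 fold change 0.36, SE 0.13, limma adjusted p = 0.797). Both *Ccnyl1*-/- mice were above both WT mice at these 2 probe sets and at no other *Ywhaz* probe set.

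**Figure D2:**
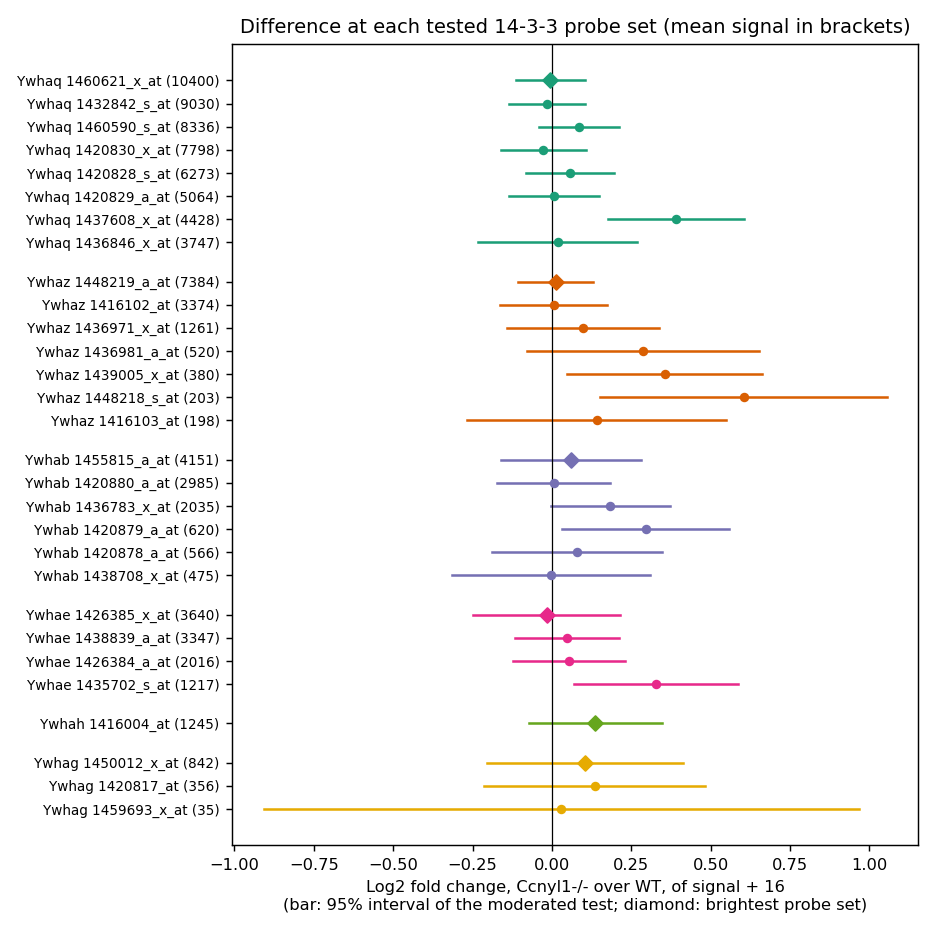
Log2 fold change of *Ccnyl1*-/- over WT of signal + 16 (horizontal axis) for each of the 29 tested 14-3-3 probe sets (rows, grouped by gene, with the mean signal in brackets), where points are estimates, diamonds mark the brightest probe set of a gene and bars are 95% intervals of limma's moderated test. The 6 diamonds lie between -0.02 and 0.14, and the 5 intervals that leave out 0 belong to probe sets of *Ywhaq*, *Ywhaz*, *Ywhab* and *Ywhae* that are not the brightest of their gene.

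*Ywhab* encodes 14-3-3 beta, known for binding RAF kinases. Its brightest probe set, 1455815_a_at, read 4661 and 3833 in *Ccnyl1*-/- testis, against 4230 and 3881 in WT testis (log2 fold change 0.06, SE 0.10, 95% interval -0.16 to 0.28, limma adjusted p = 0.945). The *Ccnyl1*-/- mice differed more from each other than the genotypes did. Among the other 5 probe sets, 1420879_a_at had the largest difference, with 690 and 679 in *Ccnyl1*-/- testis against 577 and 533 in WT testis (log2 fold change 0.30, SE 0.12, limma adjusted p = 0.797). The genotypes did not overlap there, nor at 1436783_x_at (log2 fold change 0.18) and 1420878_a_at (0.08), and they did at the remaining 3 probe sets of the gene.

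*Ywhae* encodes 14-3-3 epsilon, whose known clients include the CDC25 phosphatases. Its brightest probe set, 1426385_x_at, read 3970 and 3278 in *Ccnyl1*-/- testis, against 3437 and 3876 in WT testis (log2 fold change -0.02, SE 0.10, 95% interval -0.25 to 0.22, limma adjusted p = 0.991). The genotypes interleaved. Probe set 1435702_s_at read 1278 and 1431 in *Ccnyl1*-/- testis against 1166 and 991 in WT testis (log2 fold change 0.33, SE 0.11, limma adjusted p = 0.776), whereas the remaining pair, 1438839_a_at and 1426384_a_at, had log2 fold changes of 0.05 each. The limit given for 1448218_s_at of *Ywhaz*, probes shared between transcripts, holds for 1435702_s_at too. It also holds for 1432842_s_at, 1460590_s_at and 1420828_s_at of *Ywhaq*.

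*Ywhah*, which encodes 14-3-3 eta, was read by the single probe set 1416004_at. It had 1320 and 1289 in *Ccnyl1*-/- testis, against 1218 and 1153 in WT testis. Both *Ccnyl1*-/- mice were above both WT mice, and the difference did not pass the test (log2 fold change 0.14, SE 0.09, 95% interval -0.07 to 0.35, limma adjusted p = 0.861). Genotypes that did not overlap were found for 36.1% of all genes at their brightest probe set, against 1 of the 6 14-3-3 genes.

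*Ywhag* encodes 14-3-3 gamma, known to be abundant in brain and skeletal muscle. Its brightest probe set, 1450012_x_at, read 886 and 854 in *Ccnyl1*-/- testis, against 919 and 710 in WT testis (log2 fold change 0.11, SE 0.14, 95% interval -0.20 to 0.41, limma adjusted p = 0.928). The 2 WT mice enclosed the *Ccnyl1*-/- values. Probe set 1420817_at read 394 and 353 against 370 and 309 in WT testis (log2 fold change 0.13), and 1459693_x_at read 33.3 and 37.9 against 38.4 and 30.9 (0.03, 95% interval -0.91 to 0.97). The remaining probe set, 1420816_at, read 14.9 and 25.5 in *Ccnyl1*-/- testis and 5.13 and 9.17 in WT testis and was too dim to enter the test.

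*Sfn* encodes 14-3-3 sigma, an isoform of stratified epithelia that is induced by p53 and halts the cell cycle. Its probe set 1448612_at read 3.87 and 2.91 in *Ccnyl1*-/- testis and 3.79 and 6.09 in WT testis, with a mean of 4.16 that was below the minimum, so *Sfn* was not tested and no fold is given. Of the 6 stratified epithelium markers listed, 5 had a probe set, and they summed to 543 and 574 in *Ccnyl1*-/- testis, against 435 and 579 in WT testis. *Krt10* (mean signal 333), *Krt5* (77.0) and *Trp63* (79.2) reached the minimum, and *Krt14* and *Krt15* did not.

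Over the whole family, 10 of the 29 tested probe sets (34.5%) kept the genotypes apart, and at all 10 the *Ccnyl1*-/- mice were the higher. Among all probe sets 35.9% did not overlap, 20.6% with *Ccnyl1*-/- above and 15.3% with *Ccnyl1*-/- below WT. Of the 10, 9 were not the brightest probe set of their gene. Log2 fold changes were positive at 24 of the 29 and negative at 5, a share of 82.8% positive against 54.8% over all probe sets, with a median of 0.06 against 0.02. The direction depended on the scaling of the arrays. When the arrays were scaled to one median, 14 were positive and 15 negative (48.3% positive, against 40.2% of all probe sets) with a median of -0.02 against -0.05, and after quantile normalization 26 were positive and 3 negative (89.7%, against 49.8%). Probe sets of a gene read overlapping transcripts of the same 4 mice, so the 29 are not independent observations.

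The positive share differed along the range of signal. Below a mean signal of 1000, 9 of 10 14-3-3 probe sets had positive log2 fold changes with a median of 0.14, against 57.8% and 0.05 over all probe sets of that range. Between 1000 and 5000 the share was 11 of 12 with a median of 0.06, against 46.4% and -0.01. Above 5000, where 6 *Ywhaq* probe sets and the brightest of *Ywhaz* lay, it was 4 of 7 with a median of 0.01, against 32.4% and -0.04. The log2 difference between the 2 *Ccnyl1*-/- mice exceeded the genotype difference at 18 of 29 probe sets, against 58.1% of all probe sets, and that between the 2 WT mice at 17 of 29, against 59.1%. Both shares were near the background.

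**Figure D3:**
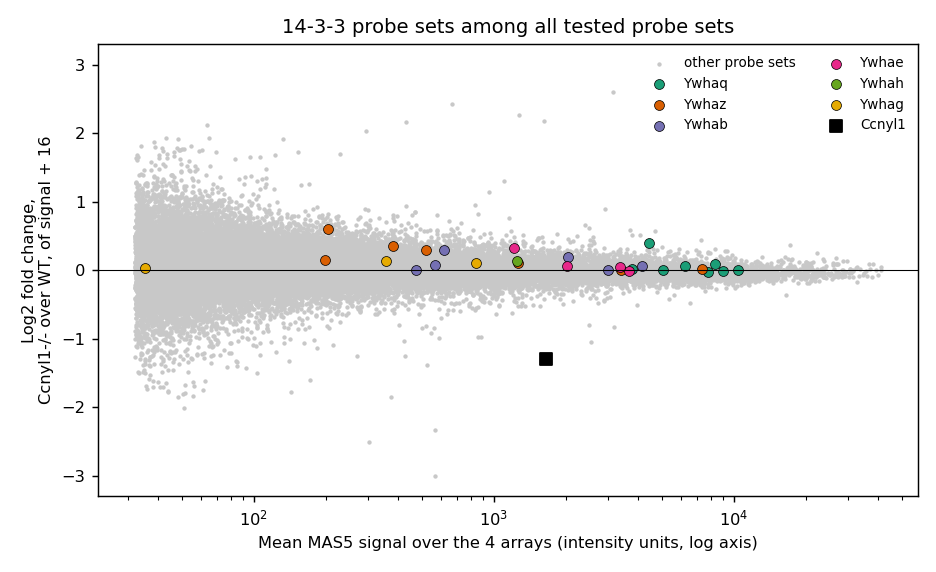
Log2 fold change of *Ccnyl1*-/- over WT of signal + 16 (vertical axis) against the mean MAS5 signal over the 4 arrays (horizontal axis, intensity units, log axis) for every tested probe set, with 14-3-3 probe sets as coloured circles by gene and *Ccnyl1* as a black square. The 29 circles lie between -0.03 and 0.60 within the cloud of other probe sets, and *Ccnyl1* lies at -1.29.

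The cyclin Y genes and the kinases they are known or likely to activate were read on the same arrays. *Ccny*, cyclin Y itself, read 1538 and 1567 at its brightest probe set in *Ccnyl1*-/- testis, against 1663 and 1722 in WT testis (log2 fold change -0.12, SE 0.08, limma adjusted p = 0.862). Both *Ccnyl1*-/- mice were below both WT mice there. At 3 of its other 6 probe sets both were above, and at the other 3 the genotypes overlapped. *Cdk16*, the PCTAIRE kinase whose loss is known to impair sperm, read 1195 and 1065 in *Ccnyl1*-/- testis, against 1143 and 1330 in WT testis (log2 fold change -0.13, SE 0.11, limma adjusted p = 0.894), with the genotypes overlapping. Its other tested probe sets had log2 fold changes of -0.08, -0.32 and -0.09, and the genotypes overlapped there too. *Cdk17*, a second PCTAIRE kinase, read 1077 and 1265 against 883 and 985 in WT testis (log2 fold change 0.32, SE 0.12, limma adjusted p = 0.783). *Cdk14*, a PFTAIRE kinase, had a log2 fold change of 0.20 and *Cdk18*, the third PCTAIRE kinase, one of 0.47 (SE 0.36). Of the 6 genes of this list with a probe set, *Ccnyl1* alone passed the test.

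Genes that write, erase or answer 14-3-3 docking sites gave no call in either direction. Of 28 tested kinases of the list that writes such sites (31 listed), 15 had positive and 13 negative log2 fold changes, with a median of 0.05. The farthest from 0 in this list were *Akt1*, a kinase of the insulin pathway, with 288 and 304 in *Ccnyl1*-/- testis against 230 and 175 in WT testis (log2 fold change 0.53, SE 0.18, limma adjusted p = 0.771), and *Sik1*, a salt-inducible kinase (-0.37, SE 0.28). Of the 7 phosphatase subunits, 2 were positive and 5 negative, with a median of -0.03. They ranged between *Ppp2r1a*, the scaffold of PP2A (log2 fold change -0.17, SE 0.08), and *Ppp1cb*, a catalytic subunit of PP1 (0.18, SE 0.07, limma adjusted p = 0.797).

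Known client proteins of the family were grouped by role. Of the 5 cell cycle clients, 4 were positive and 1 negative, with a median of 0.14, and the farthest from 0 were *Cdkn1b*, the inhibitor p27 (log2 fold change 0.39, SE 0.21), and *Cdc25b*, a phosphatase that activates CDKs (0.33, SE 0.30). Of 15 tested signalling clients (16 listed), 8 were positive and 7 negative, with a median of 0.01. There the insulin receptor substrates *Irs1* (-0.45, SE 0.39) and *Irs2* (0.28, SE 0.26) lay farthest out, each with a low signal.

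Of 13 tested transcription and survival clients (14 listed), 7 were positive and 6 negative, with a median of 0.01. *Crtc2*, a CREB coactivator that 14-3-3 proteins are known to hold in the cytoplasm, read 81.5 and 104 in *Ccnyl1*-/- testis, against 206 and 138 in WT testis. Both *Ccnyl1*-/- mice were below both WT mice, and the difference did not pass the test (log2 fold change -0.77, SE 0.25, 95% interval -1.35 to -0.19, limma adjusted p = 0.764). *Wwtr1*, the Hippo pathway coactivator TAZ, read 908 and 918 in *Ccnyl1*-/- testis, against 505 and 835 in WT testis (log2 fold change 0.48, SE 0.20, limma adjusted p = 0.815), with WT replicate 1 well below the other 3 mice.

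**Figure D4:**
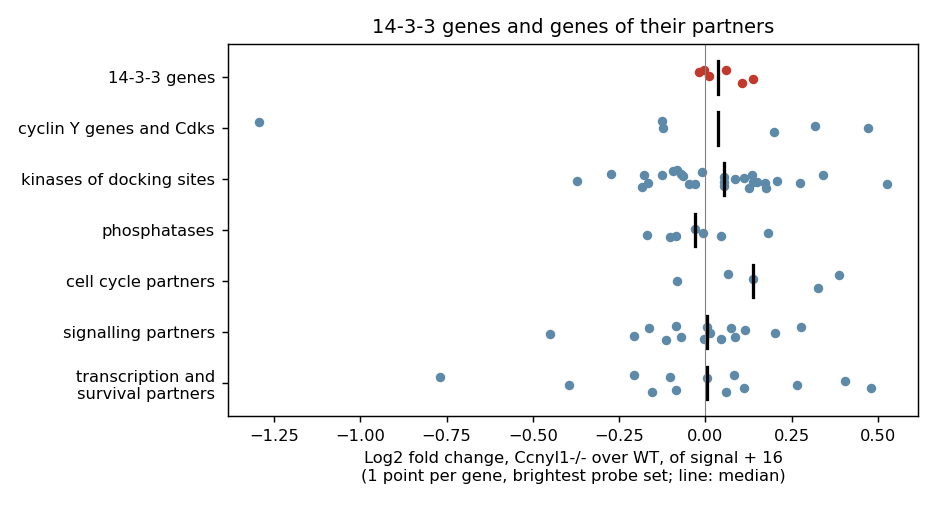
Log2 fold change of *Ccnyl1*-/- over WT of signal + 16 (horizontal axis) at the brightest probe set of each tested gene, 1 point per gene, for the 14-3-3 genes (red) and 6 lists of partner genes (rows), with black lines at the medians. The 14-3-3 genes lie between -0.02 and 0.14, the medians of the lists between -0.03 and 0.14, and the point at -1.29 is *Ccnyl1*.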

How the data were processed

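Testis RNA of 2 *Ccnyl1*-/- and 2 WT mice was measured on 1 Affymetrix array per mouse. Mice of one genotype are separate biological replicates per the labels. The values deposited by the authors are MAS5 signal intensities on a linear scale, background-corrected and scaled per array. The methods state a trimmed mean target of 100, and the deposited arrays have 500.0, so the offset of 16 and the minimum mean signal of 32 act at a lower brightness. Probe effects remain, so signals of different probe sets were not compared. No detection calls were used, and precision is limited by 2 arrays per genotype.

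The table holds 45101 probe sets, of which 64 controls were left out. log2(signal + 16) was fitted with genotype alone in R 4.3.3 and limma 3.58.1 (lmFit, eBayes with a mean-variance trend), with Benjamini-Hochberg adjustment over 32438 probe sets and a threshold of 0.05. With 2 mice per genotype an exact permutation test cannot go below p = 0.333. The fit was tested on simulated data with spreads drawn from its own fitted variance model, so that test cannot check the variance model. The members and the gene lists were chosen with earlier results of these data known. All members and cyclin Y partners were named, and in each other partner list the 2 genes with the largest absolute log2 fold change. Alternatives were other offsets, minimum signals, scalings, variance models, the methods' t-test, the replicate number as a block, other probe set rules and each mouse left out. Rescaling to a trimmed mean of 100 was added after the data were seen.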

Additional observations from a re-analysis of the deposited data

How the results depend on the processing

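The count of 14-3-3 probe sets called stayed at 0 in every setting run except one, with 0 to 1 as each mouse was left out. The log2 fold change of the 14-3-3 genes at the brightest probe set was near 0, and it changed sign in 12 recomputed values. The minimum signal, the variance model, the block and the t-test cannot move it by their construction. With the arrays scaled to one median, *Ywhab* was -0.0172 and *Ywhaz* -0.0665. Quantile normalization gave *Ywhaq* 0.0447, and the mean over all probe sets of a gene gave *Ywhae* 0.10 and *Ywhaq* 0.0637. As single mice were left out, *Ywhab* ranged between -0.0796 and 0.20, *Ywhae* between -0.15 and 0.12, *Ywhag* between -0.0772 and 0.29, *Ywhaq* between -0.0252 and 0.0157 and *Ywhaz* between -0.00459 and 0.0279. *Ywhah* kept its sign in the settings that could change it. The median of the 6 genes was 0.0589 after quantile normalization, 0.103 with the mean over all probe sets of a gene, and 0.134 over the 3 genes with a tested probe set of the plain suffix _at. With no minimum signal, which adds *Sfn*, it was 0.0117.

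Over all probe sets, 4 were called (1964 at an unadjusted p under 0.05), 7 with the arrays scaled to one median, and 11 to 57 as each mouse was left out, where a genotype with 1 mouse was assumed to vary like the other. limma without the trend called 0 (1906 at an unadjusted p under 0.05), and so did the methods' t-test after Benjamini-Hochberg adjustment (1900 at that threshold before it). *Ccnyl1* stayed at -1.29 in both, with adjusted p = 0.596 without the trend and 0.723 by the t-test, and lay between -1.35 and -1.24 as each mouse was left out. Over all tested probe sets, the deviations of the mice numbered 1 from their genotype mean correlated at r = 0.01 between the genotypes. That value cannot decide whether part of the genes followed the replicate number. The Leydig cell list summed lower in replicate 2 than in replicate 1 in both genotypes. *Cyp17a1* and *Cyp11a1* were lower in replicate 2 in both genotypes. *Star* and *Hsd3b1* were lower there in WT testis only. In *Ccnyl1*-/- testis they were higher in replicate 2 (518 and 740 for *Star*, 924 and 998 for *Hsd3b1*). With the replicate block 14 probe sets were called, none of them 14-3-3, where the lowest adjusted p was 0.152. Rescaling to a trimmed mean of 100 gave 4 calls and no 14-3-3 probe set. A 14-3-3 difference inside the intervals could not be told from 0 with these arrays, and one beyond them could still go uncalled. The intervals were not adjusted for the number of probe sets, and 5 of the 29 left out 0 without a call.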
